A study of Mus musculus with 12 samples.

Results

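The genes described here are 32 genes of glucose uptake, glycolysis, lactate handling and the pyruvate dehydrogenase gate, with 4 further genes among them that low oxygen is known to induce (Bnip3, Egln3, Ankrd37 and Vegfa). They were chosen by symbol from 54356 annotated mouse genes, and each was measured as the estimated reads summed over its transcripts. RNA of mouse primary neural stem cells, kept in medium with EGF and FGF, was sequenced after that medium had been replaced by a neurobasal medium with B-27, in which the cells differentiate. The 4 groups had 3 libraries each: cells labelled Chd5-/- at 48 h, wild-type (WT) cells at 48 h, cells labelled Chd5-/- at 3 h and WT cells at 3 h after the change. All 4 groups had received the differentiation medium, so none holds untreated cells. The labels state neither the deleted part of Chd5, the age or number of the animals nor an oxygen level. Nothing in them says that replicates came from separate cultures or animals, so p-values measure only the spread between these libraries, which may be technical.

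Libraries held 14.11 to 18.71 M estimated reads, and the 32 genes took between 0.584% and 1.49% of them. Chd5, which encodes a chromodomain helicase, did not show a loss: it stood at 5.7, 3.34 and 2.96 CPM in Chd5-/- libraries and 6.59, 7.15 and 5.28 CPM in WT libraries at 48 h, and at 5.25, 6.31 and 7.06 CPM in Chd5-/- and 3.54, 3.93 and 4.66 CPM in WT at 3 h (edgeR adjusted p = 0.467 at 48 h and 0.257 at 3 h). Chd5-/- is therefore the label of a library throughout. Summed neural stem cell markers reached 4889 to 9471 CPM, while those of microglia and blood stayed at or below 2.43 CPM, with Hba-a1 and Hbb-bs at 0. Summed markers of other neural cells were not tested, and they overlapped between genotypes except for the neuron genes at 3 h. The 6 astrocyte genes summed to 1377 to 3674 CPM in Chd5-/- and 490.4 to 2418 CPM in WT at 48 h. At 3 h they summed to 608 to 641 CPM in Chd5-/- and 430.1 to 859 CPM in WT. The 7 neuron genes summed to 719 to 1214 CPM in Chd5-/- and 542 to 827 CPM in WT at 48 h, and to 1194 to 1303 CPM in Chd5-/- and 234.5 to 641.5 CPM in WT at 3 h, and the 7 genes of the oligodendrocyte lineage to 1242 to 2092 CPM in Chd5-/- and 1424 to 2134 CPM in WT at 48 h, and to 879 to 967 CPM in Chd5-/- and 648 to 934.5 CPM in WT at 3 h. The astrocyte sum was mostly Aldoc (means of 2281 CPM in Chd5-/- and 1328 CPM in WT at 48 h) and the neuron sum mostly Map2 (1162 CPM in Chd5-/- and 360 CPM in WT at 3 h), and other markers ran the other way between genotypes. Aqp4 averaged 5.25 CPM in Chd5-/- and 72.6 CPM in WT at 48 h, and Tubb3 93.8 CPM in Chd5-/- and 142 CPM in WT at 3 h. The part of these cell markers in the results was not tested. 3 libraries stood apart from the others of their group. Ribosomal protein genes took 15.9% of the reads of WT replicate 1 at 3 h, against 3.47% to 4.38% elsewhere. At 48 h, a list of 20 mitosis genes summed to 3014 CPM in replicate 2 of Chd5-/- and 3344 CPM in replicate 2 of WT, against 212.2 to 219.1 CPM in the other 48 h libraries. Results for the 32 genes are given with all 12 libraries and, where that changes them, with the other 9. Further gene lists are given with 12 libraries, and some of them also with the other 9. Leaving the 3 out was decided with the data in view.

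Glycolysis splits glucose into pyruvate in the cytosol. Hexokinase, phosphofructokinase and pyruvate kinase catalyse its irreversible steps, and isozymes of each differ in their regulation. Proliferating cells often turn much of the pyruvate into lactate. Pyruvate dehydrogenase instead commits pyruvate to oxidation within the mitochondria, and its kinases (PDKs) switch this enzyme off. When oxygen is low, hypoxia-inducible factors (HIFs) bind near many of these genes and raise their transcription.

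Of the 32 genes, 30 passed the filter on low counts. The filter removed Slc16a3, which encodes the lactate exporter MCT4 and had at most 1 read in a library, and Pdk4, a kinase of pyruvate dehydrogenase with at most 3 reads. A gene passed the test at an edgeR adjusted p under 0.05 over 16043 genes. With 12 libraries the 48 h cells of both genotypes carried more Hk1, Pfkm and Pdk2 RNA and less Pdk3 RNA than the 3 h cells of the same genotype. Ldhb also rose in Chd5-/- cells and Pfkfb3 in WT cells. Of the glycolytic enzymes other than Hk1 and Pfkm, none passed over time in Chd5-/- cells. In WT only Gapdh, lower at 48 h, passed among them. Replicate 2 at 48 h held high levels of most of these other enzymes. Between genotypes, Pfkfb4 was higher in Chd5-/- at both times and Eno2 was lower at 48 h.

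**Figure D1:**
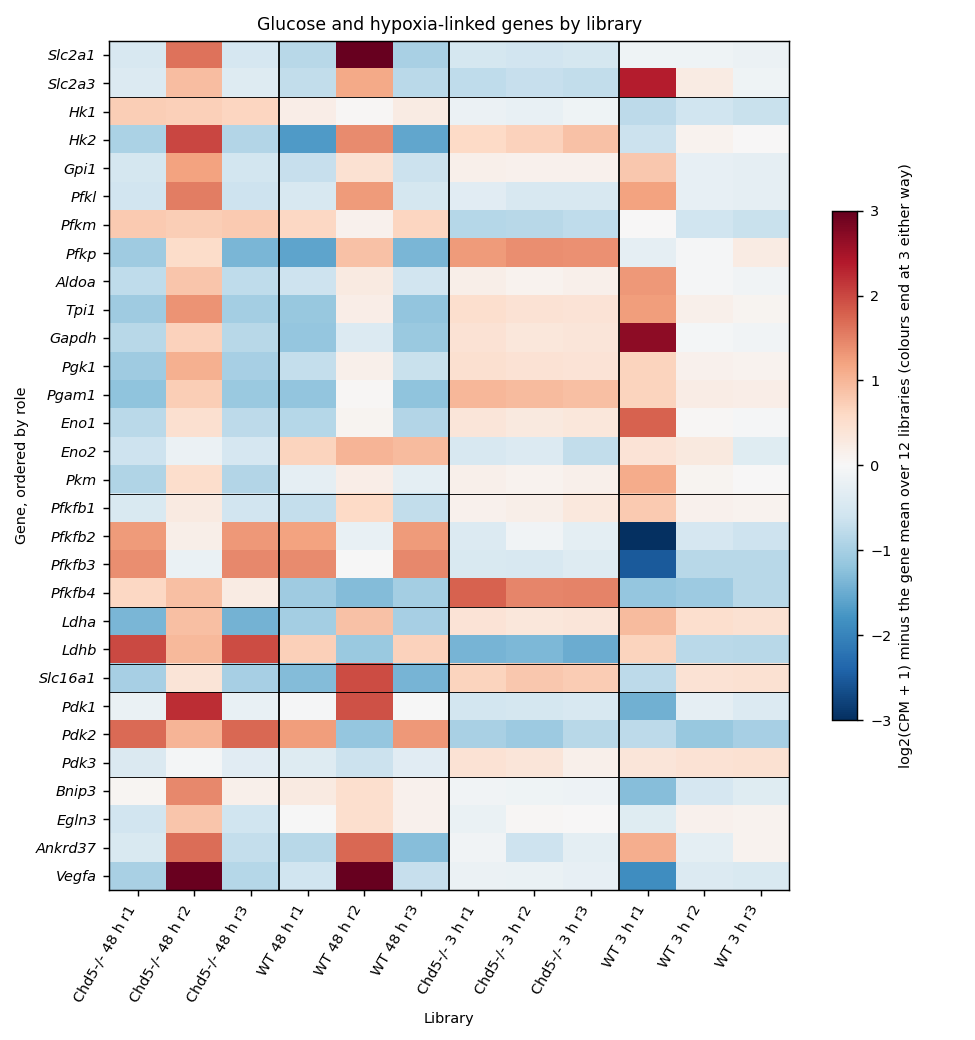
Level of each of the 30 filtered genes (rows, ordered by role) in each of the 12 libraries (columns) as log2(CPM + 1) minus the gene's mean over the libraries. Replicate 2 of both genotypes at 48 h and WT replicate 1 at 3 h differ from the other columns of their groups, and Pfkfb4 is high in the Chd5-/- columns.

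In the contrast of 48 h with 3 h, 5 genes passed in Chd5-/- (4 higher, 1 lower; 22.1% of all genes tested passed) and 6 in WT (4 higher, 2 lower; 22.9% of all genes). Both counts lie near the share of all genes. The median log2 fold change of the 30 genes was 0.13 in Chd5-/- and 0.04 in WT, against 0.04 and 0.09 over all genes. With 9 libraries, 27 genes passed in Chd5-/- (9 higher, 18 lower; 79.0% of all genes) and 28 in WT (9 higher, 19 lower; 76.0% of all genes), with medians of -0.74 and -0.53 against 0.00 and 0.02 over all genes. Taken library by library, the 48 h and 3 h groups did not overlap for 15 genes in Chd5-/- (10 above, 5 below; 64.6% of all genes did not overlap) and for 10 in WT (7 above, 3 below; 37.7% of all genes). With 9 libraries these were 28 in each genotype (85.7% of all genes in Chd5-/- and 88.5% in WT). Since most genes of the transcriptome passed in the fit of 9, the number that passed says little about these 30, and the values by library are given for each.

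Between Chd5-/- and WT, 2 genes passed at 48 h (2.74% of all genes) and 1 at 3 h (6.71% of all genes). With 9 libraries these were 20 at 48 h (12 higher, 8 lower; 47.2% of all genes) and 24 at 3 h (16 higher, 8 lower; 52.5% of all genes). No gene passed the test of the genotype by time interaction (edgeR, 0.231% of all genes passed; 1 of the 30, Ldhb, had an unadjusted p under 0.05; DESeq2 called 1, also Ldhb, with 2.51% of all genes, and limma-voom 0), and 18 did with 9 libraries (40.4% of all genes). The labels name no pairing of libraries. Replicate numbers were taken to pair them within a time because their deviations from the group mean correlated, at 3 h only weakly (0.125 to 0.261). With the number as a block within time 3 genes passed at 3 h (edgeR, 8.63% of all genes): Pfkfb4, Hk2 (log2 fold change 0.93, adjusted p = 0.0396) and Pfkp (1.47, adjusted p = 0.0193). At 48 h the block left the count at 2 (3.13% of all genes), and in the interaction at 0 (0.206% of all genes). Chd5-/- and WT libraries did not overlap for 5 genes at 48 h (4 above, 1 below; 23.2% of all genes) and for 17 at 3 h (10 above, 7 below; 45.0% of all genes). With 9 libraries these were 25 at 48 h (73.8% of all genes) and 28 at 3 h (67.2% of all genes).

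**Figure D2:**
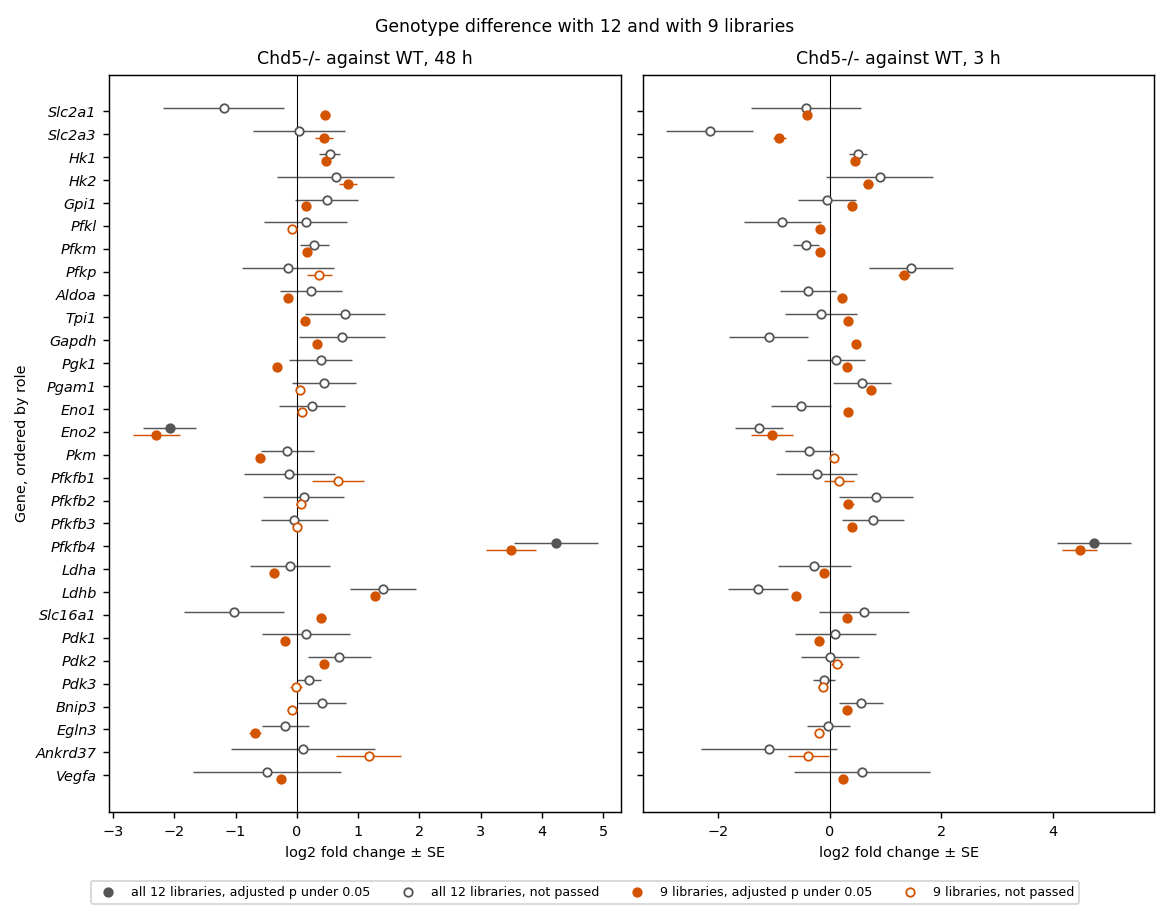
Log2 fold change of Chd5-/- over WT with its SE for the 30 genes at 48 h (left) and 3 h (right), fitted with 12 libraries (grey) and 9 (orange), filled where the adjusted p was under 0.05. Pfkfb4 lies far to the right in both panels with either set of libraries, and Eno2 lies to the left.

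Glucose enters the cells through the facilitative transporters GLUT1 (Slc2a1) and GLUT3 (Slc2a3, known as the neuronal form). Slc2a1 stood at 19.2, 86 and 18.9 CPM in Chd5-/- and 14.8, 256 and 13.3 CPM in WT at 48 h. Slc2a1 at 3 h was at 18.4, 17.8 and 18.4 CPM in Chd5-/- and 24.6, 24.8 and 23.8 CPM in WT. Replicate 2 at 48 h was 4.51 times the mean of its companions in Chd5-/- and 18.2 times in WT, and all other libraries of the 4 groups lay between 13.35 and 24.83 CPM. No contrast passed with 12 libraries. With 9, WT at 48 h was lower than at 3 h (log2 fold change -0.84 ± 0.076 SE, adjusted p = 3.34e-07), Chd5-/- was lower than WT at 3 h (log2 fold change -0.41 ± 0.067 SE, adjusted p = 0.000166) and higher at 48 h (log2 fold change 0.45 ± 0.080 SE, adjusted p = 0.000424).

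Slc2a3 stood at 8.24, 22.3 and 8.39 CPM in Chd5-/- and 6.35, 25.9 and 5.96 CPM in WT at 48 h. Slc2a3 at 3 h was at 6.26, 6.57 and 6.32 CPM in Chd5-/- and 61.5, 13.6 and 10.3 CPM in WT. WT replicate 1 at 3 h was far above its companions, and no contrast passed in edgeR with 12 libraries. On the same libraries DESeq2 called Slc2a3 lower in Chd5-/- at 3 h (log2 fold change -2.25 ± 0.77 SE, adjusted p = 0.0294, with 13.6% of all genes called). The gene's reads were split over different transcripts at the 2 times. Transcripts annotated as coding took 56.0% to 76.8% of the Slc2a3 reads of Chd5-/- libraries and 43.1% to 48.2% of those of WT libraries at 48 h. At 3 h they took at most 2.44% in Chd5-/- and 0.723% in WT, and a transcript with a retained intron, Slc2a3-204, held nearly all the rest. A sum over the gene thus counts mostly RNA that the annotation does not class as coding at 3 h. Within Slc2a1, the coding transcripts took 2.1% to 47.0% of the gene's reads, depending on the library.

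Hexokinase traps glucose in the cell by phosphorylation. Hk1 is the form typical of brain, and Hk2 is the inducible form of many proliferating cells. Hk1 (chromosome 10, 62268855 to 62379908) rose at 48 h in both genotypes. Its level was 196, 192 and 185 CPM in Chd5-/- and 136, 119.6 and 139 CPM in WT at 48 h. Hk1 at 3 h was at 104, 101 and 107 CPM in Chd5-/- and 68, 77.4 and 74.1 CPM in WT. All 48 h libraries of a genotype lay above its 3 h libraries (log2 fold change 0.88 ± 0.17 SE, adjusted p = 0.00527 in Chd5-/- and log2 fold change 0.85 ± 0.17 SE, adjusted p = 0.00807 in WT, n = 3 per group). Unlike most of the genes, Hk1 was at a similar level in replicate 2 and its companions. The call ended in Chd5-/- without a filter on low counts (adjusted p = 0.0557) and in WT when the 6 WT libraries were fitted alone (0.143). All 3 Chd5-/- libraries lay above all WT libraries at both times. Neither genotype contrast passed in edgeR (0.54 ± 0.17 SE, adjusted p = 0.173 at 48 h and 0.51 ± 0.17 SE, adjusted p = 0.113 at 3 h). DESeq2 on the same 12 libraries called Hk1 higher in Chd5-/- at 48 h (0.53 ± 0.11 SE, adjusted p = 3.49e-05, with 6.0% of all genes called). It also did so at 3 h (DESeq2, 0.45 ± 0.11 SE, adjusted p = 0.000675, with 13.6% of all genes called).

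Hk2 was low in the 48 h libraries other than replicate 2. Its level was 9.35, 78 and 9.84 CPM in Chd5-/- and 5.07, 51.9 and 5.79 CPM in WT at 48 h. Hk2 at 3 h was at 29.1, 31.1 and 35.6 CPM in Chd5-/- and 11.8, 20.4 and 19.1 CPM in WT. Replicate 2 at 48 h exceeded every 3 h library, whereas replicates 1 and 3 lay below all of them. Over time the fold change was 0.02 ± 0.95 SE in Chd5-/- and 0.28 ± 0.95 SE in WT with 12 libraries and -1.77 and -1.91 with 9, where both passed (adjusted p = 2.38e-09 and adjusted p = 1.17e-08). Hk2 made up 4.56%, 28.9% and 5.05% of the Hk1 and Hk2 reads of Chd5-/- libraries and 3.6%, 30.2% and 3.99% of those of WT at 48 h, against 21.9%, 23.5% and 25% in Chd5-/- and 14.7%, 20.9% and 20.5% in WT at 3 h. These shares are of reads, not corrected for length, and serve to compare libraries. The shift with time did not pass in an exact two-sided permutation test of the log2 ratio within genotype (mean difference -1.49, p = 0.08, adjusted p = 0.16 over 10 ratio tests). It passed without WT replicate 2 at 48 h (-2.06, exact permutation test, adjusted p = 0.04) and with 9 libraries (-2.66, adjusted p = 0.0278).

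Gpi1 encodes the isomerase that makes fructose 6-phosphate. It stood at 359.5, 1189 and 353 CPM in Chd5-/- and 321, 707 and 331 CPM in WT at 48 h. Gpi1 at 3 h was at 571, 565 and 566 CPM in Chd5-/- and 898, 435 and 429.8 CPM in WT. Replicate 2 at 48 h was above every 3 h library of its genotype in Chd5-/-, and the other 48 h libraries were below them. None of its contrasts passed with 12 libraries.

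Phosphofructokinase, which commits the sugar to glycolysis, has a muscle (Pfkm), a liver (Pfkl) and a platelet (Pfkp) subunit. Pfkm (chromosome 15, 98092589 to 98132451) rose at 48 h. Its level was 273, 265 and 273 CPM in Chd5-/- and 244, 172 and 248 CPM in WT at 48 h. Pfkm at 3 h was at 87.1, 88.8 and 92.5 CPM in Chd5-/- and 158, 103 and 99.3 CPM in WT. The 48 h libraries lay above all 3 h libraries in each genotype (log2 fold change 1.59 ± 0.24 SE, adjusted p = 0.0016 in Chd5-/- and log2 fold change 0.88 ± 0.23 SE, adjusted p = 0.0246 in WT). The call in Chd5-/- held in all 22 alternatives, and the call in WT ended in 7 of them (adjusted p up to 0.218), among them the fits without WT replicates 2 or 3 at 3 h and without WT replicates 1 or 3 at 48 h. Pfkm overlaps Senp1 on the other strand; the library kit marks strand, and whether counting used it is not given in the sources used here.

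Pfkl stood at 65.6, 283 and 63.4 CPM in Chd5-/- and 69.8, 236 and 67.3 CPM in WT at 48 h. Pfkl at 3 h was at 76.6, 69.3 and 69.3 CPM in Chd5-/- and 225, 82.5 and 80.4 CPM in WT. Outside the 3 libraries that stood apart it varied little, between 63.39 and 82.45 CPM. Pfkp stood at 3.78, 13.6 and 2.84 CPM in Chd5-/- and 2.32, 17.3 and 2.84 CPM in WT at 48 h, and at 23.4, 25.3 and 25 CPM in Chd5-/- and 7.29, 8.71 and 10.9 CPM in WT at 3 h. Every Chd5-/- library lay above every WT library at 3 h (log2 fold change 1.45 ± 0.76 SE, adjusted p = 0.27). The difference passed with the replicate block given above and with 9 libraries (log2 fold change 1.33 ± 0.11 SE, adjusted p = 3.42e-07).

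The bifunctional PFKFB enzymes make and break fructose 2,6-bisphosphate, the strongest activator of phosphofructokinase. Pfkfb4 (chromosome 9, 108991778 to 109032228) was the gene with the largest genotype difference of the 30. Its level was 2.79, 3.6 and 1.96 CPM in Chd5-/- and 0.183, 0 and 0.227 CPM in WT at 48 h. Pfkfb4 at 3 h was at 7.49, 5.81 and 5.92 CPM in Chd5-/- and 0.101, 0.171 and 0.389 CPM in WT. In reads, the 48 h libraries held 45, 54 and 31 in Chd5-/- and 3, 0 and 4 in WT, and the 3 h libraries 134, 92 and 104 in Chd5-/- and 1, 3 and 7 in WT. No Chd5-/- library overlapped a WT library at either time (log2 fold change 4.23 ± 0.68 SE, adjusted p = 0.00827 at 48 h and log2 fold change 4.74 ± 0.66 SE, adjusted p = 0.00189 at 3 h, n = 3 per group).

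The 3 h call of Pfkfb4 held in all 23 alternatives (adjusted p up to 0.0146). The 48 h call ended with an offset for transcript length (adjusted p = 0.0981) and when the 48 h libraries were fitted alone (0.0677). With 9 libraries the log2 fold changes were 3.49 at 48 h and 4.48 at 3 h, and both passed. Within Chd5-/-, the 48 h level was lower than the 3 h level in every library, and the contrast did not pass (log2 fold change -1.20 ± 0.54 SE, adjusted p = 0.137). The level was low even where it was highest, and the reads lay on different transcripts in different libraries: in Chd5-/- at 3 h a coding transcript of 3488 bases held 108.4 reads in replicate 1, 24.3 in replicate 2 and 0 in replicate 3, and a coding transcript of 3316 bases held 74.4 in replicate 3 and 0 in the other two.

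**Figure D3:**
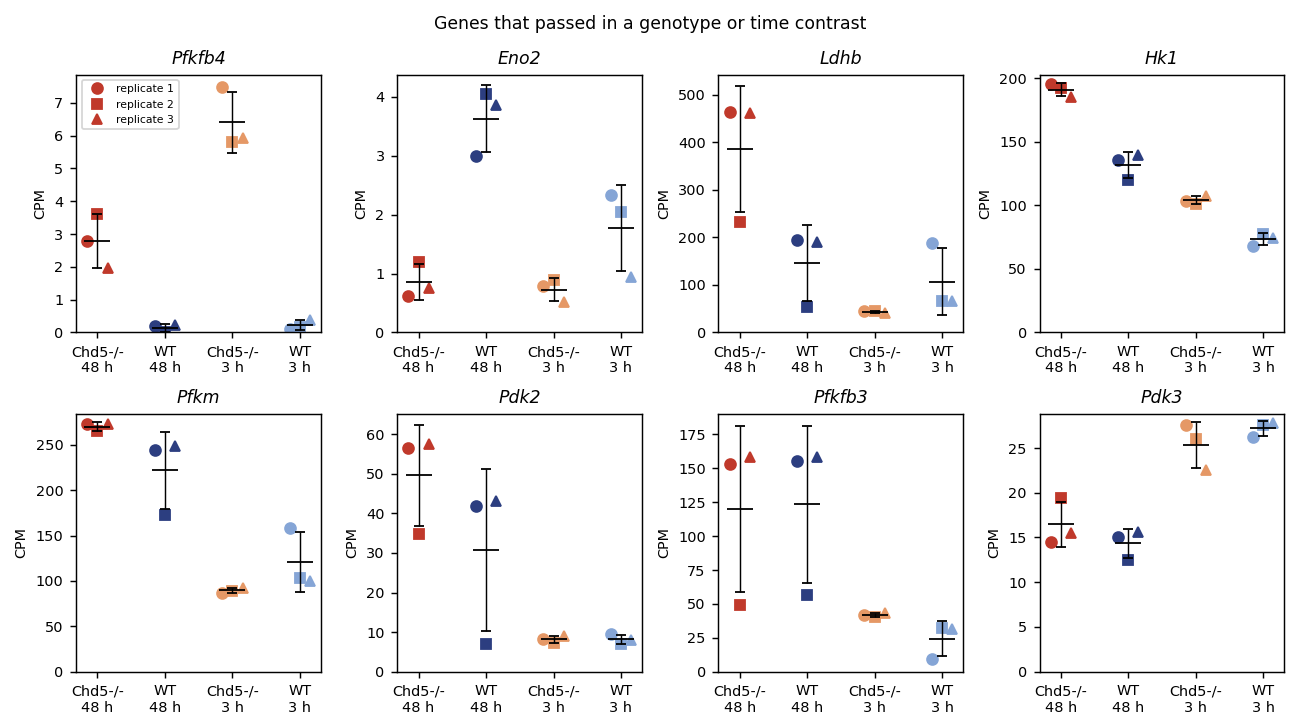
CPM by library of 8 of the 9 genes that passed in a genotype or time contrast; symbols are replicates and bars the mean and SD of 3 libraries, each axis from 0. Pfkfb4 and Eno2 separate the genotypes at both times, Eno2 only narrowly at 3 h, and Hk1 and Pfkm separate the times within each genotype.

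Pfkfb3, which favours synthesis of the activator, stood at 153, 49.4 and 158 CPM in Chd5-/- and 156, 56.8 and 158 CPM in WT at 48 h. Pfkfb3 at 3 h was at 41.5, 40.7 and 43.4 CPM in Chd5-/- and 9.22, 31.9 and 31.7 CPM in WT. Replicates 1 and 3 at 48 h lay far above all 3 h libraries, and replicate 2, the lowest 48 h library in both genotypes, lay just above them. The gene rose in WT (log2 fold change 2.34 ± 0.58 SE, adjusted p = 0.0184), a call that ended without WT replicate 1 or 3 at 48 h (adjusted p up to 0.0995) and when WT was fitted alone, and in Chd5-/- it did not pass (log2 fold change 1.52 ± 0.56 SE, adjusted p = 0.0768). Pfkfb2, the heart form, had the same order within each genotype, with 44.3, 20 and 45 CPM in Chd5-/- and 42.1, 15.1 and 44.2 CPM in WT at 48 h, and 13, 16.5 and 14.2 CPM in Chd5-/- and 1.22, 12.1 and 11.1 CPM in WT at 3 h. It did not pass with 12 libraries, and WT replicate 1 at 3 h was the lowest of all. Pfkfb1, the liver form, stayed between 0.341 and 2.84 CPM.

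To show what the annotated start sites of such genes hold, the windows of 250 bases before to 50 after the start were taken from RefSeq (GRCm38.p6). Of the 32 genes, 31 had at least 1 window, and Slc2a3 had none. The core motif of HIF binding, ACGTG or GCGTG on either strand (CACGT or CACGC on the strand shown), was present in a window of 28 of the 31 genes (90.3%) and in 46.7% of 27025 genes; by window, in 37 of 50 (74.0%) and in 43.8% of 32851 windows. ACGTG alone, which also lies in the E-box CACGTG, was in 20 genes (64.5%), against 21.8% of all genes. Eno2, Gpi1 and Tpi1 held no match. The E-box was in 7 genes (22.6%), against 8.09% of all genes. These are matches of letters and not sites of binding. The comparison is with all genes that had a window, not matched for level or base composition, and the difference was not tested. The windows below belong to Pfkfb4 and Eno2, which passed between genotypes, to Pfkfb3 and Pdk2, which passed over time, and to Ldha. With 12 libraries Ldha passed over time in neither genotype (edgeR), but it differed between replicate 2 and its companions at 48 h. Other genes that passed over time, such as Hk1 and Pfkm, are not shown. Where a gene had several windows, that with most matches is shown. Capitals mark the motif, and the sequences run 5′ to 3′ on the gene's strand.
Pfkfb4 (chr9:108991652-108991951, plus strand): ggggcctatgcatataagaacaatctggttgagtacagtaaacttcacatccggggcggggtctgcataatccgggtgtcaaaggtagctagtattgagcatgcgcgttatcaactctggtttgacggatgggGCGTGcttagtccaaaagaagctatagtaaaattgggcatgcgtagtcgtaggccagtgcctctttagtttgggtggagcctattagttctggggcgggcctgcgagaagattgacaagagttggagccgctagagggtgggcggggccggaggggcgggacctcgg
Eno2 (chr6:124769624-124769923, minus strand): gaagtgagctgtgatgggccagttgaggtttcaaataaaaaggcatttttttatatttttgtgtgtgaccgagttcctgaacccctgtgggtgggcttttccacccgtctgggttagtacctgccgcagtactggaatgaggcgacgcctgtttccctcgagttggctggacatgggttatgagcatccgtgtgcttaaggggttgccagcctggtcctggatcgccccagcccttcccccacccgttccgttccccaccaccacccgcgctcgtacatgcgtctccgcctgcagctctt
Ldha (chr7:46845554-46845853, plus strand): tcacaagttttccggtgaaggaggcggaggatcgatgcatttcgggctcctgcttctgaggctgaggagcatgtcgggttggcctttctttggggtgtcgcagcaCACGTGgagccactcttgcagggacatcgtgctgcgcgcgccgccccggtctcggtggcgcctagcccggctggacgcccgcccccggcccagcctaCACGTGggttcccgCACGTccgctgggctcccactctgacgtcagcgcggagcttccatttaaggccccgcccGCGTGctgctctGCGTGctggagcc
Pfkfb3 (chr2:11502041-11502340, minus strand): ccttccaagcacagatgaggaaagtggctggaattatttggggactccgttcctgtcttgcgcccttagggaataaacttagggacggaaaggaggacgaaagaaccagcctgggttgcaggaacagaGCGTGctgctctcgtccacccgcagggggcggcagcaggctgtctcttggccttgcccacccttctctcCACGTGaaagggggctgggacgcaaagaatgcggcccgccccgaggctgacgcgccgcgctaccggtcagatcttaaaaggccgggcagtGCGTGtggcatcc
Pdk2 (chr11:95041322-95041621, minus strand): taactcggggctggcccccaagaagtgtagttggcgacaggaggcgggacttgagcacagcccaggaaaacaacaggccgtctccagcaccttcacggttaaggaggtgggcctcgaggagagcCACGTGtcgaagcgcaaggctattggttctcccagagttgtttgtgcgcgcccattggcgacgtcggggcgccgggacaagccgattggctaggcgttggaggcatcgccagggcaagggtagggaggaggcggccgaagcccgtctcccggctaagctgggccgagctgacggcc
Pfkfb4 had 1 match (GCGTG) and Eno2 none. Ldha had 5, of which 2 are E-boxes, Pfkfb3 had 3 and Pdk2 had 1, an E-box. Ldha was higher and Pfkfb3 lower in replicate 2 than in the other 48 h libraries, and whether the matches bear on these levels was not tested.

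The enzymes of the middle of the pathway shared a pattern. Aldolase A (Aldoa), triosephosphate isomerase (Tpi1), phosphoglycerate kinase (Pgk1), phosphoglycerate mutase (Pgam1) and enolase 1 (Eno1) were low in replicates 1 and 3 at 48 h and high in replicate 2, in both genotypes. Aldoa stood at 424, 1281 and 428 CPM in Chd5-/- and 472, 866 and 482 CPM in WT at 48 h, and at 816, 778 and 806 CPM in Chd5-/- and 1776, 706 and 666 CPM in WT at 3 h. Tpi1 stood at 190.5, 1031 and 198 CPM in Chd5-/- and 183, 464 and 177 CPM in WT at 48 h, and at 568, 542 and 538 CPM in Chd5-/- and 964, 447 and 426 CPM in WT at 3 h. In both genes replicate 2 of Chd5-/- lay above every 3 h library of Chd5-/-, and that of WT lay above WT replicates 2 and 3 at 3 h. Aldoc (aldolase C), used above as an astrocyte marker, averaged 2281 CPM in Chd5-/- and 1328 CPM in WT at 48 h. At 3 h its means were 557 CPM in Chd5-/- and 522.6 CPM in WT. Means of Aldoa were 711 CPM in Chd5-/- and 606.5 CPM in WT at 48 h, and 800 and 1049 CPM at 3 h. Levels of Aldoa are thus not those of aldolase RNA as a whole, which was not tested.

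Pgam1 stood at 211, 815 and 224 CPM in Chd5-/- and 214, 497 and 209.9 CPM in WT at 48 h, and at 975, 939 and 918 CPM in Chd5-/- and 776, 565 and 560.1 CPM in WT at 3 h. Here even replicate 2 lay below all 3 h libraries of its genotype, yet the contrast did not pass (log2 fold change -1.18 ± 0.52 SE, adjusted p = 0.133 in Chd5-/- and log2 fold change -1.05 ± 0.52 SE, adjusted p = 0.164 in WT). Pgk1 stood at 249, 1095 and 259 CPM in Chd5-/- and 320.1, 581 and 326 CPM in WT at 48 h, and at 724, 704 and 695 CPM in Chd5-/- and 831, 572 and 566 CPM in WT at 3 h, with replicate 2 of Chd5-/- above all 3 h libraries. Eno1 stood at 847, 2091 and 862 CPM in Chd5-/- and 822, 1570.0 and 804 CPM in WT at 48 h, and at 1915, 1824 and 1882 CPM in Chd5-/- and 5073, 1517 and 1457 CPM in WT at 3 h. WT replicate 1 at 3 h was the highest library of the 12 for Eno1 in CPM but not in TPM, where it stood at 995 and its companions at 1370.0 and 1339. Its Aldoa, Tpi1 and Pkm also lay above its companions in CPM and below them in TPM. With 9 libraries all 5 genes were lower at 48 h in both genotypes and passed, by 0.94, 1.54, 1.51, 2.15 and 1.17 on the log2 scale in Chd5-/- and by 0.57, 1.33, 0.86, 1.46 and 0.92 in WT, in the order in which they are named above.

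Gapdh (chromosome 6, 125161715 to 125166467), which makes NADH and a high-energy phosphate from glyceraldehyde 3-phosphate, stood at 450.0, 1295 and 446 CPM in Chd5-/- and 353, 596 and 369 CPM in WT at 48 h, and at 1071, 1008 and 1022 CPM in Chd5-/- and 5118, 758 and 743 CPM in WT at 3 h. All WT 48 h libraries lay below all WT 3 h libraries, and the gene fell in WT (log2 fold change -2.33 ± 0.74 SE, adjusted p = 0.0444); WT replicate 1 at 3 h was 6.82 times the mean of its companions. The call ended in 13 of 21 alternatives (adjusted p up to 0.193), among them the fit without that library and those without any other library but WT replicates 2 and 3 at 3 h and Chd5-/- replicate 2 at 48 h. Gapdh has 88 near-identical copies, to which 149% as many reads were assigned as to the gene itself, mostly to the pseudogene Gm12671, identical over 1002 bases. Reads of the gene and of such copies cannot be told apart, so its level is uncertain. Transcripts annotated as coding took at most 1.23% of the Gapdh reads of a Chd5-/- library, 1.58% in WT at 48 h and 30.7% in WT at 3 h. Transcripts with a retained intron took 65.7% to 78.1%, so the WT contrast compares unlike mixes of transcripts. With the copies summed it stood at 1382, 3799.7 and 1365 CPM in Chd5-/- and 1067, 1703 and 1075 CPM in WT at 48 h, and at 3087, 2913 and 2945 CPM in Chd5-/- and 6989, 2196 and 2105 CPM in WT at 3 h, and the WT contrast did not pass (-1.56 ± 0.54 SE, adjusted p = 0.0602). For Pgk1, the copies held 33.6% as many reads as the gene, mainly Gm5537; for every other member the share was at most 2.3%.

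Eno2 (chromosome 6, 124760053 to 124769673), the enolase of neurons, was scarce, with 9 to 68 reads in a library. Its level was 0.619, 1.2 and 0.757 CPM in Chd5-/- and 2.99, 4.05 and 3.86 CPM in WT at 48 h. Eno2 at 3 h was at 0.782, 0.884 and 0.512 CPM in Chd5-/- and 2.33, 2.05 and 0.943 CPM in WT. All Chd5-/- libraries lay below all WT libraries at both times. The gene was lower at 48 h (log2 fold change -2.07 ± 0.43 SE, adjusted p = 0.0291) and did not pass at 3 h (log2 fold change -1.27 ± 0.43 SE, adjusted p = 0.117). The 48 h call was fragile: it ended in 10 of 23 alternatives with adjusted p up to 0.193, among them 7 fits without 1 library (replicates 1, 2 and 3 of WT and 1 and 3 of Chd5-/- at 48 h, replicates 1 and 2 of Chd5-/- at 3 h), and most of its reads in WT at 48 h lay on transcripts with a retained intron (68.4% to 87.7%).

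As a share of Eno1 and Eno2 reads, Eno2 made up 0.073%, 0.0575% and 0.0877% in Chd5-/- and 0.363%, 0.257% and 0.478% in WT at 48 h, and 0.0408%, 0.0484% and 0.0272% in Chd5-/- and 0.0459%, 0.135% and 0.0647% in WT at 3 h. The log2 ratio of Eno2 to Eno1 was 1.60 lower in Chd5-/- than in WT within time (-1.60, exact two-sided permutation test within time, p = 0.01, adjusted p = 0.0333 over 10 ratio tests) and 1.59 higher at 48 h than at 3 h (exact permutation test, p = 0.005, the smallest the design allows, adjusted p = 0.0333). The genotype difference had the same sign in 6 of 6 replicate pairs, and the exact test over pairs did not pass (p = 0.0312, the smallest possible, adjusted p = 0.0781). At 48 h the genotypes did not overlap, while at 3 h WT replicate 1 lay among the Chd5-/- libraries. Neither call held when TPM replaced reads (adjusted p = 0.0667 for each), nor without any of 7 single libraries (WT replicate 2 and Chd5-/- replicates 1, 2 and 3 at 3 h, WT replicate 1 and Chd5-/- replicates 1 and 3 at 48 h; adjusted p 0.05 to 0.075); fewer libraries also allow fewer arrangements.

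Pyruvate kinase ends the pathway. Its gene Pkm (chromosome 9, 59656368 to 59679375) stood at 777, 2076 and 779.6 CPM in Chd5-/- and 1192, 1663 and 1188 CPM in WT at 48 h. Pkm at 3 h was at 1609, 1544 and 1595 CPM in Chd5-/- and 3144, 1541 and 1465 CPM in WT. Replicates 1 and 3 of Chd5-/- at 48 h were the lowest of the 12 libraries. No contrast passed with 12 libraries; with 9, Chd5-/- was lower than WT at 48 h (log2 fold change -0.60 ± 0.034 SE, adjusted p = 1.51e-08). The gene is spliced to M1, common in differentiated tissue, or to M2, common in embryonic and proliferating cells, by the choice between 2 exons of 167 bases. The exons are shown because the share of M1 rests on them; capitals mark the 64 positions at which they differ (GRCm38, plus strand).
M1 exon (chr9:59675029-59675195): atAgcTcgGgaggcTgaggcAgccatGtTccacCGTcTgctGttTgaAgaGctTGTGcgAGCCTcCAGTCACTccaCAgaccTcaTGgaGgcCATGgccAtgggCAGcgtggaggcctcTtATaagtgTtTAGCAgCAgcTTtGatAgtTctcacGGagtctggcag
M2 exon (chr9:59675568-59675734): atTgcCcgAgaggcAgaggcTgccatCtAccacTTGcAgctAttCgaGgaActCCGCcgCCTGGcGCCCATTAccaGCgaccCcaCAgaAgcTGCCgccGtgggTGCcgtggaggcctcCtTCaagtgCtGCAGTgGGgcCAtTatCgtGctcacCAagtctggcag
The M1 transcript Pkm-202 took 9.07%, 6.07% and 7.13% of the reads of both transcripts in Chd5-/- and 5.52%, 3.55% and 6.92% in WT at 48 h, and 16.6%, 13.6% and 13.3% in Chd5-/- and 0.274%, 10.9% and 10.9% in WT at 3 h. M2 therefore held most reads in all 12 libraries. The transcripts also differ at their first and last exons, so the estimate draws on more than these 2 exons.

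The M1 share was higher in Chd5-/- within time (mean log2 difference 1.42, exact two-sided permutation test, p = 0.01, adjusted p = 0.0333 over 10 ratio tests), and in 6 of 6 pairs of the same replicate number and time. An exact test that flips the sign of these pairs, added with the data in view, gave p = 0.0312, the smallest that 6 pairs allow, and did not pass (adjusted p = 0.0781). At 3 h all Chd5-/- libraries lay above all WT libraries; at 48 h Chd5-/- replicate 2 lay below WT replicate 3. WT replicate 1 at 3 h, with its 0.274%, set much of the size: the difference was 0.50 without it (exact permutation test, adjusted p = 0.05, not passed) and 0.44 with 9 libraries (adjusted p = 0.0278). The call also ended with TPM (1.31, adjusted p = 0.0667) and without any of 7 other single libraries (adjusted p 0.05 to 0.45): WT replicate 2 and all 3 Chd5-/- replicates at 3 h, WT replicate 1 and Chd5-/- replicates 1 and 3 at 48 h. Over time the share did not pass with 12 libraries (-0.22, exact permutation test, adjusted p = 0.945) and was lower at 48 h without WT replicate 1 at 3 h (-1.13, adjusted p = 0.0167) and with 9 libraries (-0.92, adjusted p = 0.0278).

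**Figure D4:**
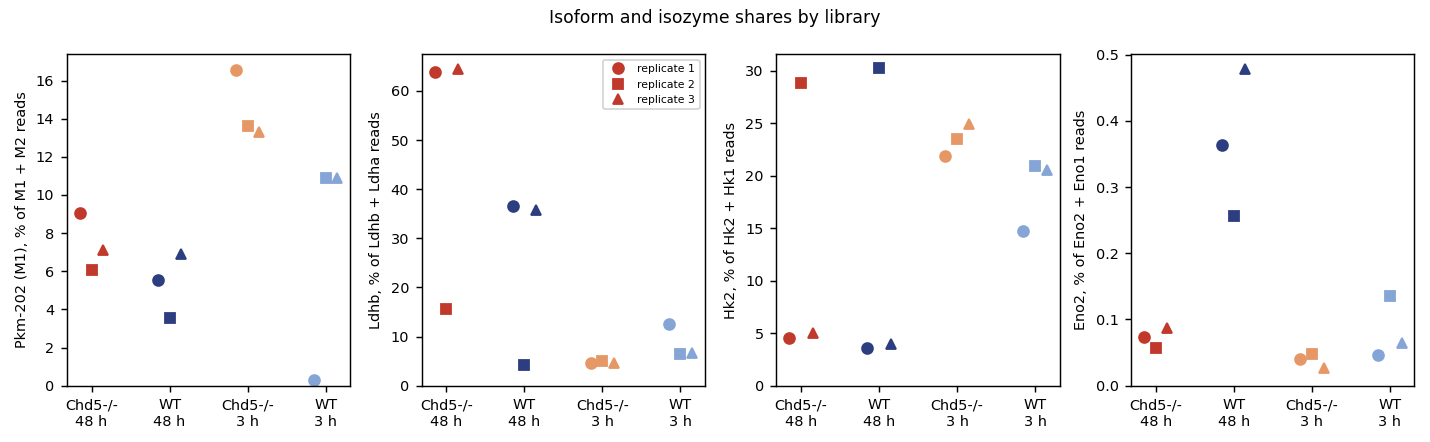
Share of M1 among Pkm M1 and M2 reads, and of Ldhb, Hk2 and Eno2 among the reads of their isozyme pair, in percent by library, axes from 0. At 48 h, replicate 2 (squares) has a low Ldhb and a high Hk2 share in both genotypes, and the M1 share of WT replicate 1 at 3 h lies near 0.

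Lactate dehydrogenase has subunits A (Ldha), which is usual where pyruvate becomes lactate, and B (Ldhb), usual in oxidative tissue. Ldhb (chromosome 6, 142490249 to 142507957) stood at 464, 233 and 461 CPM in Chd5-/- and 194, 53.7 and 190.3 CPM in WT at 48 h. Ldhb at 3 h was at 43.9, 45.3 and 41.5 CPM in Chd5-/- and 187, 66.8 and 65.9 CPM in WT. In Chd5-/- every 48 h library lay above every 3 h library and the gene rose (log2 fold change 3.15 ± 0.57 SE, adjusted p = 0.00411), in all 22 alternatives (adjusted p up to 0.0255). In WT, replicate 2 at 48 h lay below every 3 h library and replicate 1 at 3 h near the 48 h level, and the contrast did not pass (log2 fold change 0.45 ± 0.53 SE, adjusted p = 0.558); with 9 libraries it did (log2 fold change 1.49 ± 0.041 SE, adjusted p = 1.55e-12). The genotype order turned with time, since all Chd5-/- libraries lay above all WT libraries at 48 h (log2 fold change 1.40 ± 0.54 SE, adjusted p = 0.291) and below them at 3 h (log2 fold change -1.29 ± 0.54 SE, adjusted p = 0.178), and neither difference passed with 12 libraries. Both passed with 9 (1.28 at 48 h and -0.61 at 3 h).

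Ldha stood at 261, 1265 and 254 CPM in Chd5-/- and 336, 1241 and 342 CPM in WT at 48 h, and at 902, 867 and 872 CPM in Chd5-/- and 1310.0, 966 and 933 CPM in WT at 3 h, so replicates 1 and 3 at 48 h were the lowest and replicate 2 lay above all 3 h libraries except WT replicate 1. Ldhb took 64%, 15.6% and 64.4% of the reads of the pair in Chd5-/- and 36.5%, 4.15% and 35.8% in WT at 48 h, and 4.64%, 4.96% and 4.54% in Chd5-/- and 12.5%, 6.47% and 6.59% in WT at 3 h. Per length, Ldhb took 79.6%, 29.3% and 79.4% of the TPM of the pair in Chd5-/- and 56.5%, 8.9% and 55.5% in WT at 48 h, so that it was the more abundant of the pair in replicates 1 and 3 alone. At 3 h its share of TPM was 8.72%, 8.98% and 8.21% in Chd5-/- and 33.6%, 12.3% and 11.9% in WT. The log2 ratio of Ldhb to Ldha was 2.76 higher at 48 h (exact two-sided permutation test, p = 0.02, adjusted p = 0.05, not under the threshold). It passed without WT replicate 2 at 48 h (3.38, exact permutation test, adjusted p = 0.025) and with 9 libraries (4.10, adjusted p = 0.0278). Between genotypes the ratio differed in opposite directions at the 2 times, by 1.80 at 48 h, where it was higher in Chd5-/- in 3 of 3 replicate pairs, and by -0.84 at 3 h, where it was lower in 3 of 3. The mean of both (0.48) did not pass (exact permutation test, adjusted p = 0.717). Nor did the genotype contrast of Hk2 to Hk1 (0.32, adjusted p = 0.593) or either contrast of Slc2a3 to Slc2a1 (-0.79 over time, adjusted p = 0.442; -0.41 between genotypes, adjusted p = 0.637, from differences of 0.45 at 48 h and -1.25 at 3 h). Slc16a1, the lactate and pyruvate carrier MCT1, stood at 28.4, 74.8 and 28.3 CPM in Chd5-/- and 22.5, 224 and 21 CPM in WT at 48 h. Slc16a1 at 3 h was at 91.4, 101 and 98.2 CPM in Chd5-/- and 33, 78.3 and 78.5 CPM in WT. It was lowest in replicates 1 and 3 at 48 h and highest in WT replicate 2 at 48 h, and passed in no contrast with 12 libraries.

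Of the kinases that switch off pyruvate dehydrogenase, Pdk2 rose and Pdk3 fell at 48 h in both genotypes. Pdk2 stood at 56.5, 34.9 and 57.5 CPM in Chd5-/- and 41.9, 7.01 and 43.2 CPM in WT at 48 h, and at 8.16, 7.32 and 8.99 CPM in Chd5-/- and 9.42, 7.06 and 7.94 CPM in WT at 3 h (log2 fold change 2.60 ± 0.55 SE, adjusted p = 0.00764 in Chd5-/- and log2 fold change 1.92 ± 0.53 SE, adjusted p = 0.0285 in WT). WT replicate 2 at 48 h stayed at the 3 h level, and all other 48 h libraries were above all 3 h libraries. The call in Chd5-/- held in all 22 alternatives, and that in WT ended in 6 (adjusted p up to 0.16), among them the fits without WT replicate 2 or 3 at 3 h and without WT replicate 1 or 3 at 48 h. Pdk3 stood at 14.6, 19.4 and 15.5 CPM in Chd5-/- and 15, 12.5 and 15.6 CPM in WT at 48 h, and at 27.6, 26 and 22.5 CPM in Chd5-/- and 26.2, 27.6 and 27.8 CPM in WT at 3 h (log2 fold change -0.62 ± 0.20 SE, adjusted p = 0.0482 in Chd5-/- and log2 fold change -0.92 ± 0.20 SE, adjusted p = 0.0118 in WT).

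The times did not overlap for Pdk3 in either genotype. Its call in Chd5-/- ended in 12 of 22 alternatives (adjusted p up to 0.199), among them 9 fits without 1 library: replicates 2 and 3 of WT and 1, 2 and 3 of Chd5-/- at 3 h, and replicates 1 and 3 of each genotype at 48 h. Its call in WT ended in 2 (adjusted p up to 0.129). Pdk1, a known HIF target, stood at 22.9, 127 and 22.3 CPM in Chd5-/- and 25.8, 103 and 26.4 CPM in WT at 48 h. Pdk1 at 3 h was at 17.8, 18.1 and 18.7 CPM in Chd5-/- and 9.12, 21.9 and 19.6 CPM in WT. Replicate 2 at 48 h was 5.61 times the mean of its companions in Chd5-/- and 3.94 times in WT. No contrast passed with 12 libraries; with 9, Pdk1 was slightly lower in Chd5-/- at both times (-0.19 at each) and higher at 48 h in both genotypes (0.28 in each).

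**Figure D5:**
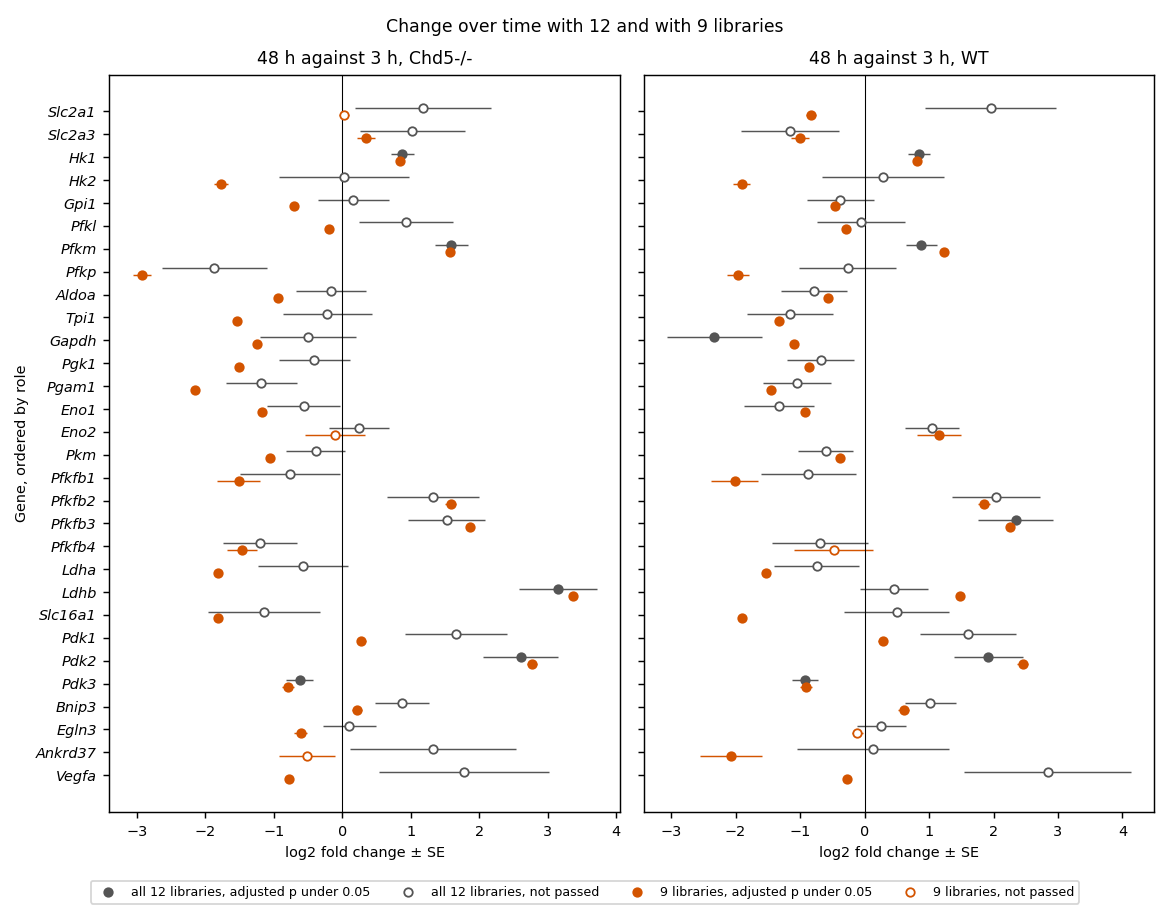
Log2 fold change of 48 h over 3 h with its SE for the 30 genes in Chd5-/- (left) and WT (right), fitted with 12 libraries (grey) and 9 (orange), filled where the adjusted p was under 0.05. With 9 libraries most enzymes from Hk2 to Pkm lie left of 0, and Hk1, Pfkm, Pfkfb2, Pfkfb3, Ldhb and Pdk2 lie right of it with either set.

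Among the hypoxia-induced genes, Vegfa, which encodes a growth factor of blood vessels, differed widely between the 48 h libraries. It stood at 37.9, 600.0 and 41.2 CPM in Chd5-/- and 49.8, 857 and 46.3 CPM in WT at 48 h. Vegfa at 3 h was at 67.2, 66.5 and 64.3 CPM in Chd5-/- and 20.1, 57.2 and 55.4 CPM in WT. Replicate 2 at 48 h was 15.2 times the mean of its companions in Chd5-/- and 17.9 times in WT. Bnip3, a mitophagy receptor, stood at 19.4, 52.2 and 20.6 CPM in Chd5-/- and 22.4, 26.5 and 20.3 CPM in WT at 48 h, and at 17.1, 16.7 and 16.6 CPM in Chd5-/- and 6.99, 12.8 and 14.3 CPM in WT at 3 h. Egln3, a prolyl hydroxylase that marks HIF for degradation, stood at 13.2, 36.5 and 12.9 CPM in Chd5-/- and 20, 29.1 and 22.1 CPM in WT at 48 h, and at 17.4, 20.5 and 20.3 CPM in Chd5-/- and 15.3, 22.2 and 21.9 CPM in WT at 3 h. Replicate 2 was again the highest 48 h library of both. Ankrd37 stayed between 0.227 and 8.90 CPM, with its 2 highest values in replicate 2 at 48 h. None of the 4 passed in any contrast with 12 libraries.

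The split between replicate 2 and its companions at 48 h ran through the list. Of the 30 genes, 22 were above both companions in replicate 2 in both genotypes, against 34.0% of all genes tested, and 5 (Pfkm, Ldhb, Pdk2, Pfkfb2 and Pfkfb3) were below both, against 34.9% of all genes. The mitosis genes moved with them, as given above, and their part in these differences was not tested. In bulk RNA, fewer cells of a type and less RNA per cell cannot be told apart. The labels name no difference between replicate 2 and the others, so the split belongs to no comparison of the design and carries no test.

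Genes of neighbouring pathways were read from lists of the same kind; of all genes tested, 22.1% passed over time in Chd5-/-, 22.9% in WT, 2.74% between genotypes at 48 h and 6.71% at 3 h, and the counts of these short lists are to be read against those shares. A list of 11 genes covered the entry of pyruvate into mitochondria and its use there. Of these, Pcx (pyruvate carboxylase) rose at 48 h in both genotypes (edgeR, 0.89 ± 0.26 SE, adjusted p = 0.0326 in Chd5-/- and 1.32 ± 0.26 SE, adjusted p = 0.00809 in WT). No other gene of the list passed over time. Mpc1, a subunit of the mitochondrial pyruvate carrier, was higher in Chd5-/- at 3 h (56.8, 58.3 and 54.6 CPM in Chd5-/- and 11.2, 17.2 and 19.4 CPM in WT, 1.82 ± 0.38 SE, edgeR adjusted p = 0.0162) and was the only one of the 11 to pass between genotypes with 12 libraries. With 9 libraries 7 were higher and 0 lower in Chd5-/- at 3 h (52.5% of all genes passed), and 4 were higher and 3 lower at 48 h (47.2% of all genes). Of 9 pentose phosphate genes, 0 passed in the 5 contrasts with 12 libraries (edgeR, with 1 to 3 at an unadjusted p under 0.05 in the 3 contrasts where any were). With 9 libraries 9 were lower at 48 h in WT (76.0% of all genes passed), and 6 were lower and 1 higher in Chd5-/- (79.0% of all genes). Between genotypes 5 were then higher and 1 lower in Chd5-/- at 3 h (52.5% of all genes), and 3 higher and 0 lower at 48 h (47.2% of all genes). Of 10 tested genes of glycogen and gluconeogenesis, 1 was higher and 1 lower in Chd5-/- at 3 h, and 0 passed between genotypes at 48 h. Over time, 4 of the list rose in each genotype. Among them were Pygb, brain glycogen phosphorylase, with 624, 122 and 609 CPM in Chd5-/- and 388, 41.1 and 384 CPM in WT at 48 h against 54, 53.2 and 54.2 CPM in Chd5-/- and 44, 60.8 and 58 CPM in WT at 3 h, and Pgm1, phosphoglucomutase (1.45 ± 0.18 SE, adjusted p = 0.000779 in Chd5-/-; 1.26 ± 0.18 SE, adjusted p = 0.00255 in WT). In Pygb, as in Pdk2, WT replicate 2 at 48 h stayed at the 3 h level.

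Of 14 other isozymes and carriers, 5 were tested. Slc2a4, the insulin-responsive transporter GLUT4, was lower in Chd5-/- at both times, with 0, 0.2 and 0.126 CPM in Chd5-/- and 1.77, 1.01 and 1.02 CPM in WT at 48 h (-3.47 ± 0.65 SE, adjusted p = 0.0168) and 1.06, 0.631 and 0.854 CPM in Chd5-/- and 5.47, 6.78 and 7.55 CPM in WT at 3 h (-2.95 ± 0.53 SE, adjusted p = 0.00841), and it fell over time in both genotypes. Eno3, the muscle enolase, and Slc16a7, the carrier MCT2, were lower in Chd5-/- at 3 h (-2.61 ± 0.49 SE, adjusted p = 0.0105 and -1.41 ± 0.37 SE, adjusted p = 0.0448).

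Of 10 genes that control HIF, 9 were tested. Hif1an, an asparaginyl hydroxylase of HIF, was higher in Chd5-/- at 3 h (79.5, 81.6 and 86.3 CPM in Chd5-/- and 30.2, 51.2 and 50.4 CPM in WT; 0.91 ± 0.22 SE, adjusted p = 0.0349). Vhl, which targets HIF for degradation, rose at 48 h in Chd5-/- (1.24 ± 0.28 SE, adjusted p = 0.0114), and Cited2, a competitor of HIF, fell in WT (-1.07 ± 0.29 SE, adjusted p = 0.0273). Of 16 tested genes of a second hypoxia list, Car12, a carbonic anhydrase, was lower in Chd5-/- at 3 h (0.335, 0.189 and 0.285 CPM in Chd5-/- and 3.24, 7.46 and 7.55 CPM in WT, -4.45 ± 0.96 SE, edgeR adjusted p = 0.0201), and it was the only one to pass between genotypes with 12 libraries. P4ha2, a collagen prolyl hydroxylase, rose and Ndrg1 fell over time in both genotypes, and Adm, adrenomedullin, rose in WT (70.1, 144 and 68.8 CPM at 48 h and 8.51, 27.8 and 29.8 CPM at 3 h, 2.10 ± 0.67 SE, edgeR adjusted p = 0.0447). In Chd5-/- Adm stood at 6.56, 33.6 and 7 CPM at 48 h, below every WT library, and at 22.2, 21.9 and 21.7 CPM at 3 h. Neither its genotype difference at 48 h nor its change over time in Chd5-/- passed with 12 libraries. These hypoxia-linked genes thus passed in different directions, and the median of the list was -0.58 between genotypes at 48 h and -0.07 at 3 h, against -0.02 and -0.02 over all genes. With 9 libraries 10 genes of the list were lower and 2 higher in Chd5-/- at each time (47.2% of all genes passed at 48 h and 52.5% at 3 h), with medians of -0.37 at 48 h and -0.22 at 3 h.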

How the data were processed

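Salmon was run on the reads of each of the 12 libraries, per the submitters' processing notes; the sources used here give neither its version nor its settings or index. The deposited tables give estimated counts of reads and TPM for 140658 transcripts per library, with replicates not pooled. The kit was TruSeq Stranded mRNA, per the labels' protocols. Of the transcripts, 140137 matched GENCODE M21 (GRCm38) and 521, with 0.135% to 0.181% of a library's reads, did not.

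From these, expected counts were added up per gene (54356 genes), rounded to whole numbers, and filtered with edgeR 4.0.16 (minimum count 10, minimum total 15), which left 16043 genes. After TMM scaling, edgeR's quasi-likelihood test was fitted to all 12 libraries with 1 mean per group, for 5 contrasts: Chd5-/- against WT at each time, 48 h against 3 h in each genotype, and the interaction. P-values were adjusted by Benjamini-Hochberg over all genes, and a gene passed at an adjusted p under 0.05. SE is the fold change divided by the root of F. CPM were computed on the TMM-scaled library sizes.

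Isozyme ratios were compared as log2((reads + 0.5)/(reads + 0.5)) by exact permutation within strata, with adjustment over 10 tests. Intervals from counting were not used; depth limits scarce genes such as Pfkfb4 and Eno2. Near-identical copies were found with blastn 2.17.0 as annotated transcripts at 95% identity or more over 300 bases. R was 4.3.3, and the tests were checked on simulated data. DESeq2 1.42.0 and limma 3.58.1 (voom) were alternatives, with other scalings, filters, an offset for transcript length, summed copies, fits of the compared groups alone, replicate blocks and each library left out.

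Samples were grouped by the labels' genotype and time. The same replicate number deviated together across genotypes within a time (correlation of gene-wise deviations from the group mean 0.125 to 0.261 at 3 h and 0.704 to 0.788 at 48 h), but not across times (-0.019 to 0.02), so numbers were taken to pair libraries within a time only. The labels name no pairing. At 48 h replicate 2 stood apart in both genotypes, which enters the correlations of that time.

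The members and the other gene lists were chosen with earlier results of these data known. Every one of the 32 genes is given: those with a group mean of 10 CPM or more, or a call, by library and the others by range. Of each further list at most 4 genes, those with the smallest p over the 5 contrasts, are named. A gene that the rule would name is not reported here.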

Additional observations from a re-analysis of the deposited data

Results flagged for a closer look

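For 2 genes the genotypes separated completely and in opposite directions at the 2 times. The log2 genotype difference of Ldhb, the lactate dehydrogenase B subunit, was 2.69 larger at 48 h than at 3 h (edgeR interaction, adjusted p = 0.226), with every Chd5-/- library above every WT library at 48 h and below every WT library at 3 h. That of Pfkm, the muscle subunit of phosphofructokinase, was 0.71 larger at 48 h (adjusted p = 0.502), with the same order of libraries. Neither interaction passed in edgeR with 12 libraries. DESeq2 on the same libraries called that of Ldhb (2.78 ± 0.80 SE, adjusted p = 0.0252, 2.51% of all genes called) and not that of Pfkm (adjusted p = 0.341), and limma-voom called neither. With 9 libraries both passed (1.89 ± 0.06 SE, adjusted p = 7.47e-11 for Ldhb and 0.34 ± 0.05 SE, adjusted p = 0.000203 for Pfkm), where 40.4% of all genes passed.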

How the results depend on the processing

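RLE size factors, a stricter filter, limma-voom and summed copies left the number of genes that passed within 1.5 times in all 5 contrasts. DESeq2 gave an adjusted p for 25 of the 30 genes. It called some genes that edgeR did not. Between genotypes these were Hk1 at both times and Slc2a3 at 3 h. Over time they were Pfkfb3, Pfkfb4 and Pfkp in Chd5-/-, and Eno1 and Pfkfb2 in WT. For Chd5-/- against WT at 3 h, where 1 gene passed, DESeq2 gave 3 (13.6% of all genes), a fit of the 3 h libraries alone 2 (6.76%), the replicate block within time 3 and the 9 libraries 24; leaving out 1 library gave 1 to 2. At 48 h, where 2 passed, no filter on low counts gave 1 (1.29%), a fit of the 48 h libraries alone 0 (4 at an unadjusted p under 0.05; 1.74% of all genes), the transcript length offset 0 (3 at an unadjusted p under 0.05; 1.64% of all genes) and the 9 libraries 20; leaving out 1 library gave 1 to 3. For 48 h against 3 h in Chd5-/-, where 5 passed, DESeq2 gave 8 (30.4% of all genes), no filter 3 (8.91%), Chd5-/- libraries alone 9 (53.4%) and the 9 libraries 27; leaving out 1 library gave 4 to 10. In WT, where 6 passed, WT libraries alone gave 0 (8 at an unadjusted p under 0.05; no gene of the table passed in that fit) and the 9 libraries 28; leaving out 1 library gave 2 to 8. For the interaction, DESeq2 gave 1 and the 9 libraries 18, against 0, and leaving out 1 library gave 0. A block of the replicate number over all 12 libraries gave 1, 2, 5, 5 and 0 in the order of these contrasts.

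The paired exact test left the mean differences between genotypes as they were (1.42 for the Pkm M1 share and -1.60 for Eno2 to Eno1) and neither passed, since 6 pairs allow no p under 0.0312. With TPM in place of reads, the Pkm M1 share differed between genotypes by 1.31 and Eno2 to Eno1 by 1.16 over time and -1.29 between genotypes, and none of them passed. In TPM, Hk2 to Hk1 between genotypes turned to -0.20, and Slc2a3 to Slc2a1 turned to 0.066 over time and 0.61 between genotypes. With 9 libraries the Pkm M1 share over time (-0.92), Ldhb to Ldha over time (4.10), Hk2 to Hk1 over time (-2.66) and between genotypes (0.29) and Slc2a3 to Slc2a1 between genotypes (-0.24) passed, and Slc2a3 to Slc2a1 over time turned to 0.086. Leaving out 1 library, the Pkm M1 share ranged over 0.50 to 1.87 between genotypes and -1.13 to 0.23 over time. Ldhb to Ldha ranged over -0.14 to 1.03 between genotypes and 2.45 to 3.38 over time, and Eno2 to Eno1 over -1.77 to -1.39 and 1.42 to 1.80. Hk2 to Hk1 ranged over -0.19 to 0.89 and -2.06 to -1.18, and Slc2a3 to Slc2a1 over -0.76 to -0.011 between genotypes.

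With 9 libraries these log2 fold changes of single genes had the other sign and passed; the cause was not tested. Chd5-/- against WT at 3 h: Gpi1 0.39, Aldoa 0.22, Tpi1 0.33, Gapdh 0.46, Eno1 0.34 and Pdk1 -0.19. At 48 h: Slc2a1 0.45, Aldoa -0.15, Pgk1 -0.33, Slc16a1 0.40 and Pdk1 -0.19. Over time in Chd5-/-: Hk2 -1.77, Gpi1 -0.71, Pfkl -0.19, Egln3 -0.61 and Vegfa -0.78. Over time in WT: Slc2a1 -0.84, Hk2 -1.91, Slc16a1 -1.90, Ankrd37 -2.07 and Vegfa -0.28. In the interaction: Slc2a1 0.87, Gpi1 -0.25, Aldoa -0.37, Tpi1 -0.21, Gapdh -0.14, Pgk1 -0.65, Eno1 -0.25, Pkm -0.68 and Ldha -0.27.

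The groups have 3 libraries, and 2 in 3 of the 4 groups once the 3 libraries that stood apart are left out, a choice that also lowers the spread within groups. Genes with few reads, Pfkfb4 and Eno2 above all, have fold changes that depend on counting error.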

Other observations

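Transcription factors of the MYC network, several of which bind glycolytic genes, were read from a list of 9; over time, 22.1% of all genes passed in Chd5-/- and 22.9% in WT. Mxd1, which competes with MYC for its partner MAX, rose over time in both genotypes, with 38, 21.1 and 36.5 CPM in Chd5-/- and 26.9, 13.3 and 28.2 CPM in WT at 48 h against 9.28, 9.79 and 10.5 CPM in Chd5-/- and 2.03, 6.55 and 8.27 CPM in WT at 3 h (1.69 ± 0.47 SE, edgeR adjusted p = 0.0261 in Chd5-/-; 2.01 ± 0.48 SE, adjusted p = 0.0158 in WT). The glucose-sensing factors of the list also rose: Mlxipl in both genotypes (3.56 ± 0.69 SE, adjusted p = 0.0054 in Chd5-/-; 2.41 ± 0.61 SE, adjusted p = 0.0206 in WT), at levels of at most 2.93 CPM, and Mlxip in WT (1.09 ± 0.28 SE, adjusted p = 0.0211). No gene of the list passed between genotypes or in the interaction (edgeR; 1 at 3 h, 2 at 48 h and 1 in the interaction had an unadjusted p under 0.05).

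The list of 20 mitosis genes, used above to describe the libraries that stood apart, had 0 genes that passed in any contrast with 12 libraries (edgeR; 4 over time in Chd5-/- and 1 in WT had an unadjusted p under 0.05), and with 9 libraries all 20 were lower at 48 h in both genotypes (median log2 fold change -4.69 in Chd5-/- and -4.49 in WT). Cdc20, an activator of the anaphase-promoting complex, stood at 10.5, 96.3 and 11.8 CPM in Chd5-/- and 9.59, 126 and 9.88 CPM in WT at 48 h, and at 242, 232 and 229.8 CPM in Chd5-/- and 348, 214 and 210.3 CPM in WT at 3 h, with replicate 2 at 48 h between its companions and the 3 h libraries.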
